A study of Mus musculus with 15 samples.

Results

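The genes described are the D-type cyclins Ccnd1, Ccnd2 and Ccnd3, the cyclin-dependent kinase (CDK) inhibitors Cdkn1a, Cdkn1b, Cdkn1c, Cdkn2a, Cdkn2b and Cdkn2c, and Trp53, measured in mouse NIH3T3 fibroblasts that carried Runx constructs. Members were chosen by gene symbol, taking every probe set of the Affymetrix array that the platform annotation gives one of these symbols alone. Of the 10 symbols, 9 had at least 1 such probe set, 21 probe sets in all, out of 18193 named genes and 45037 probe sets tested. No probe set carried the symbol Trp53 in the annotation used here, and its RNA level was not analysed here. Ccnd2 had 7 probe sets, Ccnd1 and Ccnd3 had 3 each, Cdkn1a and Cdkn1b had 2 each, and Cdkn1c, Cdkn2a, Cdkn2b and Cdkn2c had 1 each.

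All 15 arrays came from NIH3T3 cells, an immortalised line of mouse embryo fibroblasts, infected with the retroviral vector pBabe-puro. The groups were cells with RUNX1-ER, a form of human RUNX1 switched on by 4-hydroxytamoxifen (4-OHT), induced with 4-OHT or uninduced, cells that stably expressed mouse Runx3, mouse Runx2 or mouse Runx1, cells with human RUNX1, and cells with the empty vector with or without 4-OHT. Every group had 2 arrays except the human RUNX1 line, which had 1. Cultures had 7 days of growth and then 24 h in 0.2% ethanol, alone or with 4-OHT, at a concentration that the labels give as 0.1 mM. The labels do not say which of these treatments each stable line received. They call the arrays biological replicates without saying that these were separate cultures or infections. The p-values therefore speak of the spread among these arrays alone, and that spread may be technical.

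D-type cyclins bind and activate CDK4 and CDK6, and the active kinases phosphorylate the retinoblastoma protein, which releases E2F transcription factors and lets cells enter S phase. The INK4 inhibitors (Cdkn2a, Cdkn2b, Cdkn2c) bind CDK4 and CDK6, while the CIP and KIP inhibitors (Cdkn1a, Cdkn1b, Cdkn1c) bind cyclin-CDK complexes more widely and restrain CDK2. The p53 protein, product of Trp53, activates Cdkn1a among many other genes, and NIH3T3 cells are known to lack the Cdkn2a locus. Runx proteins are transcription factors that bind short DNA sites together with the partner Cbfb.

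The promoters of 3 members are shown because the RNA of each differed between groups: Cdkn2c, which was higher after RUNX1-ER induction and lower in the Runx3 line, Ccnd3, which was lower in the Runx2 and Runx3 lines, and Cdkn1a, whose brighter probe set was lower in the Runx2 line than in the other mouse Runx lines. Each line gives the 250 bases before an annotated start site, 5′ to 3′ on the gene's strand, from RefSeq on mouse build GRCm38.p6. Capitals mark GC boxes (GGGCGG on either strand) and, in the first Cdkn1a window, a p53 core pair (CATG, 6 bases of any kind, CATG).
Cdkn2c, chr4:109665373-109665622, minus strand: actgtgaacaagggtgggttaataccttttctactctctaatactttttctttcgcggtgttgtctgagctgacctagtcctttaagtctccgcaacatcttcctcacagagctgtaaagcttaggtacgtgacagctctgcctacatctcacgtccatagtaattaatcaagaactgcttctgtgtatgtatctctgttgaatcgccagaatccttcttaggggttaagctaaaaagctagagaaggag
Cdkn2c, chr4:109666757-109667006, minus strand: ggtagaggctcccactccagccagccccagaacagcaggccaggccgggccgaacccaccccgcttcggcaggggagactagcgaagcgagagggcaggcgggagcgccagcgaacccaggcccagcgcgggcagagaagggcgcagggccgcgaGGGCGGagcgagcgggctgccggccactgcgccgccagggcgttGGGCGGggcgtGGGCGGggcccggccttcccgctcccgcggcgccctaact
Ccnd3, chr17:47504801-47505050, plus strand: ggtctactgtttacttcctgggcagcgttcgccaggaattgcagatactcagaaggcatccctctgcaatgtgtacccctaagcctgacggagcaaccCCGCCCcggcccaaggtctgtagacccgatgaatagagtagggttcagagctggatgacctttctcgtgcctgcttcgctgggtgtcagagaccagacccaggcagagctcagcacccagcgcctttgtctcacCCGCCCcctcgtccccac
Ccnd3, chr17:47593217-47593466, plus strand: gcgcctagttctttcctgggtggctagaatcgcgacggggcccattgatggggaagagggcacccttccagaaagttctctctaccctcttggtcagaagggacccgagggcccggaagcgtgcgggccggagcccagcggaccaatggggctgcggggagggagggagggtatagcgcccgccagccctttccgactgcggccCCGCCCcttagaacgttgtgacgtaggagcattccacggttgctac
Cdkn1a, chr17:29090729-29090978, plus strand: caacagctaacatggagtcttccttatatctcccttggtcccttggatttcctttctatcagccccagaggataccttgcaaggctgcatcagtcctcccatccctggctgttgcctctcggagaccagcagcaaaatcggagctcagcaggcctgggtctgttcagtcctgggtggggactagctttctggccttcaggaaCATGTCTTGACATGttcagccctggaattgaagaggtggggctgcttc
Cdkn1a, chr17:29093519-29093768, plus strand: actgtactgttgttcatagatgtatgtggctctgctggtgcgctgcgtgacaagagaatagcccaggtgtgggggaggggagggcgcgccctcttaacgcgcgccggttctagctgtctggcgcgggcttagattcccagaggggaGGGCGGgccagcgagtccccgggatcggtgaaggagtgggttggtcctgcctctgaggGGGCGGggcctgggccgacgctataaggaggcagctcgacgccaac

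The promoter table held 11 windows for 7 members, Trp53 included, and none for Ccnd1, Ccnd2 or Cdkn1c. The core letters of the Runx site, TGTGGT or TGCGGT on either strand, were in 0 of the 11 windows, against 18.6% of all 32851 windows of the same length. GC boxes were in 6 of the 11 windows, against 32.7% of all windows. E2F letters (TTTCGCGC, TTTGGCGC, TTTCCCGC or TTTGCCGC, on either strand) were in 1 of the 11, a window of Cdkn2a, against 1.9% of all. The p53 core pair, a motif chosen after the sequences were seen, was in 1 of the 11, the first Cdkn1a window, from 48 to 35 bases before the start, against 0.5% of all windows. A match describes letters and is not evidence of binding.

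The deposited values are log2 values made by the Robust Multichip Average method (RMA), which gives each array nearly the same distribution. A shift in the cells' total RNA is thereby hidden, and differences of dim probe sets are understated. Array medians were 3.69 to 3.75 log2 units. Of 10 fibroblast markers, 9 lay above the array's 75th percentile on every array, and the other, Dcn, did not, while no epithelial, leukocyte or endothelial marker did (0 of 6, 0 of 5 and 0 of 5). A Runx1 probe set (1427650_a_at) read 9.11 and 9.30 in the Runx1 line and 4.45 to 4.88 on the 13 other arrays. An Esr1 probe set (1421244_at) read 5.74 to 7.02 in the 4 RUNX1-ER arrays and 3.76 to 4.72 elsewhere. By correlation over all probe sets, 1 uninduced RUNX1-ER array and both vector arrays with 4-OHT were closest to a vector array without 4-OHT, and the second Runx2 array was closest to the first induced RUNX1-ER array. In these bulk cultures, fewer cells that express a gene and less RNA per cell cannot be told apart.

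Across the 9 measured members, induced RUNX1-ER and the Runx3 line gave the most calls, in opposite directions. Counts below are of the 21 probe sets with a limma p below 0.05 after Benjamini-Hochberg adjustment over all 45037 probe sets. On induction of RUNX1-ER, 4 were higher and 0 lower than in uninduced cells (3 for Ccnd1 and 1 for Cdkn2c), where 0.95% of all probe sets were called and 0.548% were called higher. Against vector with 4-OHT, induced cells again had 4 higher, where 1.95% of all were called and 1.34% were called higher. The Runx3 line had 7 lower and 0 higher than vector (5 for Ccnd2, 1 for Ccnd3 and 1 for Cdkn2c), where 5.1% of all were called and 3.07% were called lower. The Runx2 line had 1 lower than vector (Ccnd3), where 1.37% of all were called and 0.879% were called lower.

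No member probe set was called in the Runx1 line against vector, with 4 at an unadjusted p below 0.05 and 0.928% of all probe sets called. The same held for uninduced RUNX1-ER against vector, with 3 at an unadjusted p below 0.05 and 0.00888% of all called. It also held for 4-OHT in vector cells, with 0 members at an unadjusted p below 0.05 and 0% of all called. The median log2 difference of the 21 member probe sets was −0.26 in the Runx3 line and −0.21 in the Runx2 line, beside medians over all probe sets of 0.00014 and −0.0051. It was 0.037 on RUNX1-ER induction, beside 0.023 over all probe sets. These comparisons share arrays: the stable lines and uninduced RUNX1-ER were all set against the same 2 vector arrays.

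**Figure D1:**
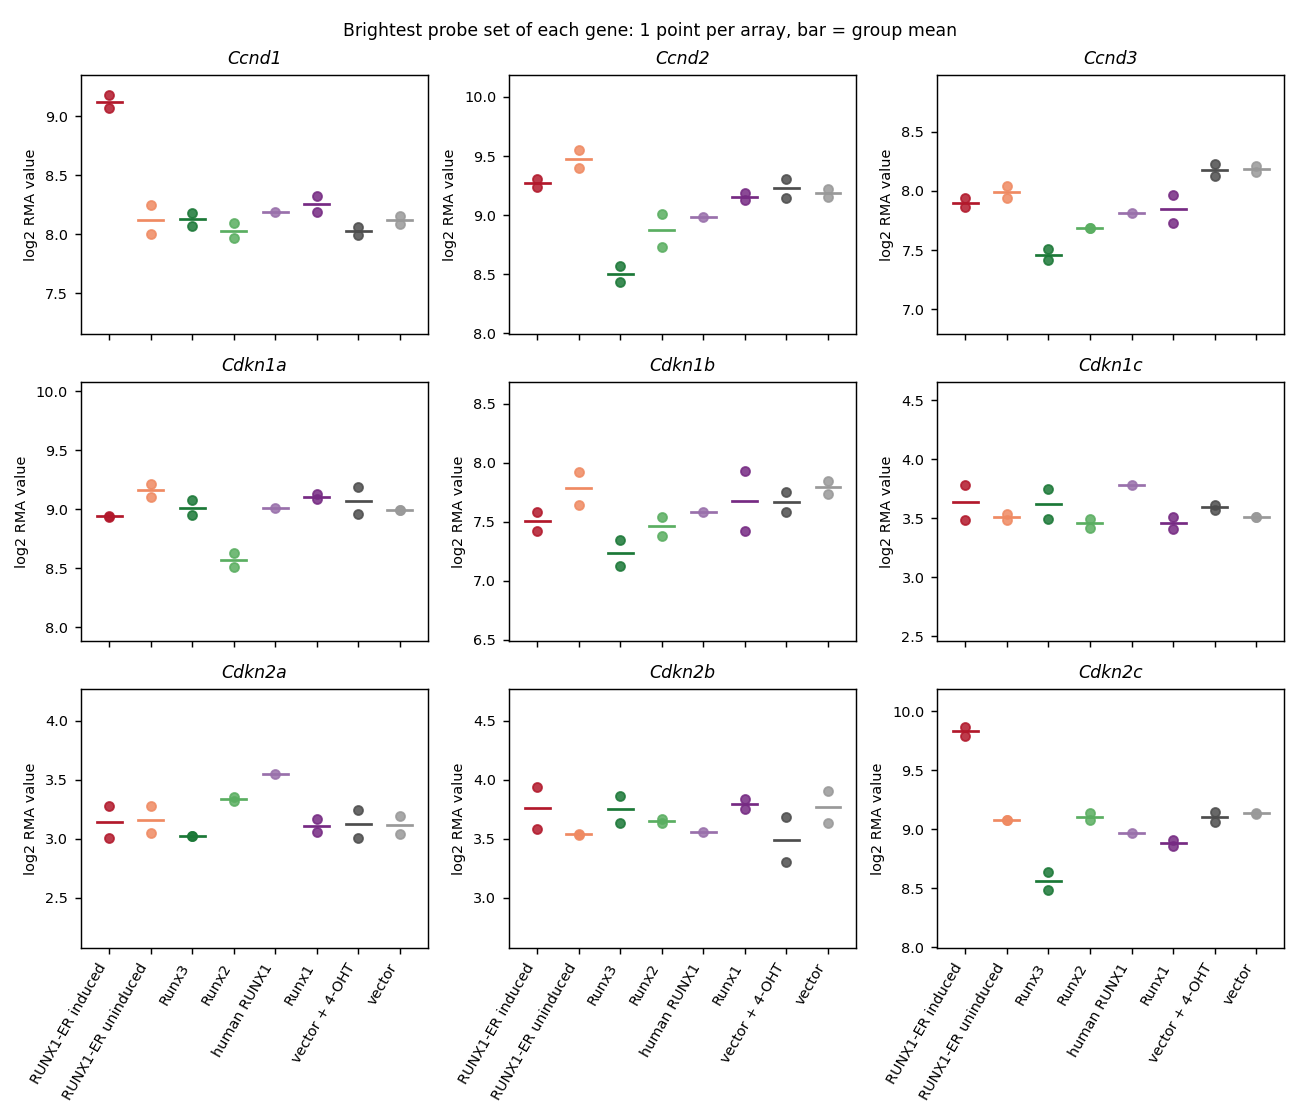
Log2 RMA value of the brightest probe set of each of the 9 measured members, 1 panel per gene, with 1 point per array and a bar at each group mean. The vertical axes span the same number of log2 units. Ccnd1 and Cdkn2c stand highest in induced RUNX1-ER cells, and Ccnd2, Ccnd3 and Cdkn2c stand lowest in the Runx3 line, whereas Cdkn1c, Cdkn2a and Cdkn2b vary little around low values.

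Ccnd1 encodes cyclin D1, the D cyclin that fibroblasts induce in response to growth factors. Its RNA rose on RUNX1-ER induction, about 2.00-fold on its brightest probe set, 1448698_at, and by less on the others. It was not called in any stable line. Probe set 1448698_at read 9.18 and 9.07 in induced RUNX1-ER cells, against 8.25 and 8.004 in uninduced cells. It read 8.06 and 7.99 in vector cells with 4-OHT and 8.16 and 8.08 in vector cells. The 2 induced arrays lay above all 13 others, which spanned 7.97 to 8.32.

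The induced minus uninduced difference of 1448698_at was 1.00 log2 units (SE 0.11, limma adjusted p = 0.000296). The other Ccnd1 probe sets moved alike, with 1417419_at at 8.70 and 8.54 in induced and 7.71 and 7.77 in uninduced cells, a difference of 0.88 (SE 0.10, adjusted p = 0.000709). Probe set 1417420_at read 8.02 and 8.08 in induced and 7.22 and 7.12 in uninduced cells, also a difference of 0.88 (SE 0.11, adjusted p = 0.0012). For both, as for the first, the groups did not overlap. With only the compared groups in the fit, the calls of 1448698_at (adjusted p = 0.0654) and 1417419_at (0.0552) were lost at the same differences. Against vector cells with 4-OHT, which had the same ligand, induced cells were higher by 1.09, 0.92 and 0.82 for 1448698_at, 1417419_at and 1417420_at, where 1417419_at was not called with only the compared groups in the fit (adjusted p = 0.0578). Uninduced RUNX1-ER cells differed from vector by 0.01 for 1448698_at, with a 95% interval of −0.22 to 0.24.

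A change on induction that exceeds the 4-OHT effect in vector cells was tested as the difference of the 2 differences. It called 4 member probe sets of 2 genes, Ccnd1 and Cdkn2c, all 4 higher. Of all probe sets, 0.329% were called there and 0.262% were called higher. 4-OHT in vector cells moved Ccnd1 1448698_at by −0.09 (95% interval −0.32 to 0.14). Induction beyond that was 1.09 log2 units (SE 0.15, limma adjusted p = 0.00548), and this call was kept without any one of the 8 arrays. For 1417419_at it was 0.90 (SE 0.15, adjusted p = 0.0168). That call was lost, with adjusted p from 0.0516 to 0.109, without either uninduced array, induced replicate 1, either vector array or replicate 2 of vector with 4-OHT. For 1417420_at it was 0.93 (SE 0.16, adjusted p = 0.0208), lost at 0.0877 to 0.12 without uninduced replicate 2, either induced array, vector replicate 2 or replicate 2 of vector with 4-OHT. With only the 4 groups concerned in the fit, 1417419_at (0.0809) and 1417420_at (0.0738) were also not called.

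No Ccnd1 probe set was called in the stable lines. Probe set 1448698_at read 8.18 and 8.08 in the Runx3 line, 7.97 and 8.10 in the Runx2 line, 8.19 and 8.32 in the Runx1 line and 8.19 on the human RUNX1 array. The difference from vector was 0.01 for Runx3 (95% interval −0.22 to 0.24) and −0.09 for Runx2 (−0.32 to 0.14). It was 0.14 for Runx1 (−0.09 to 0.37) and 0.07 for human RUNX1 (−0.21 to 0.35). For 1448698_at these intervals do not reach the rise seen on RUNX1-ER induction. Probe set 1417419_at read 7.97 and 7.93 in the Runx3 line and 7.96 and 7.96 in the Runx1 line, against 7.75 and 7.69 in vector cells, without overlap. Its difference was 0.23 for Runx3 (95% interval 0.01 to 0.46, limma adjusted p = 0.318) and 0.24 for Runx1 (0.01 to 0.46, adjusted p = 0.617).

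The effect of induced RUNX1-ER over vector with 4-OHT was also set against each stable line's effect over vector, in contrasts added after the data were seen. In the contrast with Runx1, 2 member probe sets were called higher (0.433% of all probe sets), in that with Runx2 3 (0.2% of all) and in that with Runx3 6 (0.939% of all). They came from 2, 2 and 3 genes. For Ccnd1 1448698_at the RUNX1-ER effect exceeded the Runx1 effect by 0.96 (SE 0.15, limma adjusted p = 0.00928), the Runx2 effect by 1.18 (adjusted p = 0.00495) and the Runx3 effect by 1.09 (adjusted p = 0.00233). The other Ccnd1 probe sets gave 0.66 to 0.80 over the same lines, and 2 of those 6 values were called. Since the ligand of the stable lines is not given, the effect of 4-OHT and that of the construct cannot be told apart in these contrasts beyond what vector cells show.

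**Figure D2:**
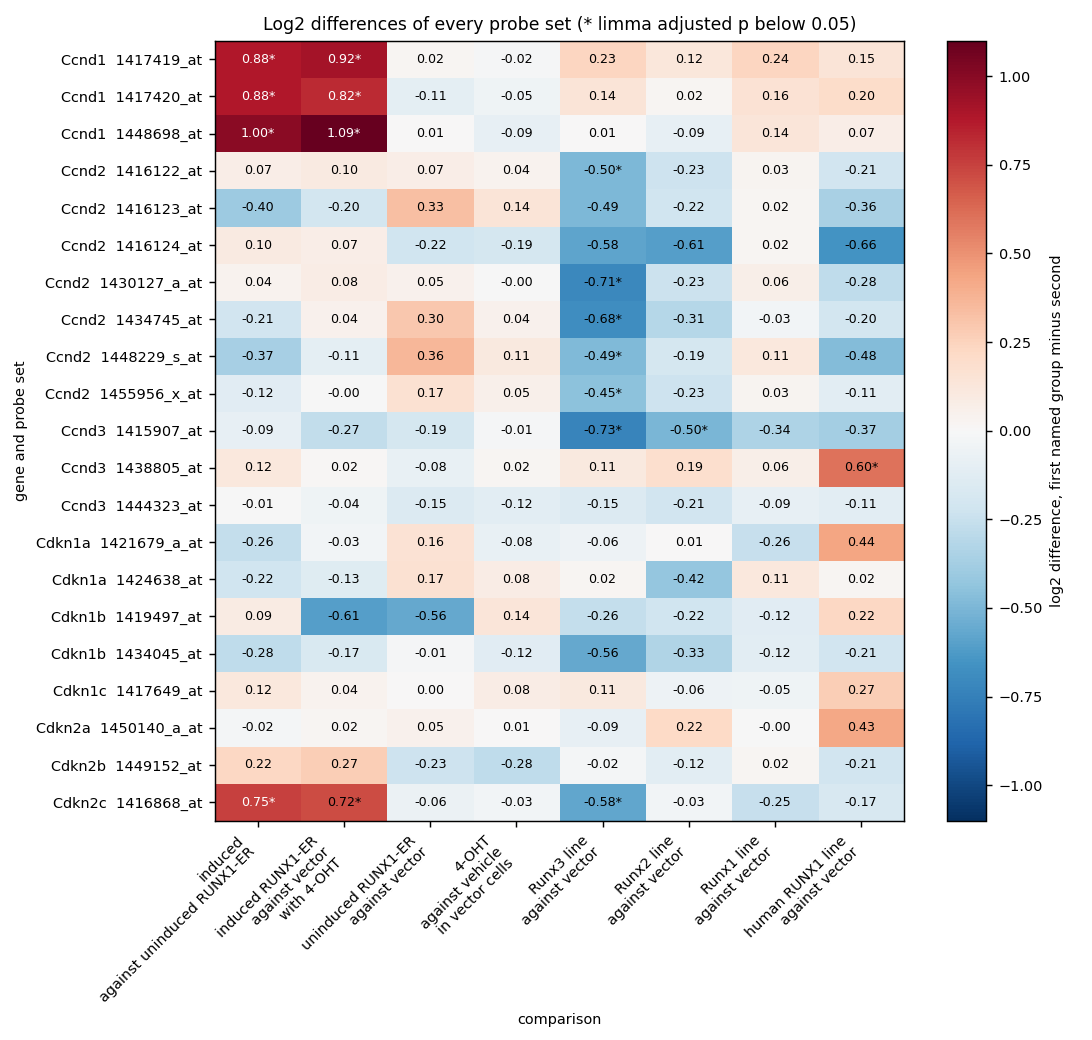
Log2 differences of all 21 member probe sets (rows) in 8 comparisons (columns), the first named group minus the second, with colour and number for the size and an asterisk where the limma adjusted p was below 0.05. The 3 Ccnd1 probe sets and Cdkn2c are red under RUNX1-ER induction, and 5 Ccnd2 probe sets, Ccnd3 1415907_at and Cdkn2c are blue in the Runx3 line.

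Ccnd2 encodes cyclin D2. Its RNA fell in the Runx3 line to about 0.613 to 0.730 of vector on the 5 brighter of its 7 probe sets. Probe set 1434745_at, the brightest, read 8.44 and 8.56 in the Runx3 line, against 9.22 and 9.15 in vector cells. It read 8.73 and 9.01 in the Runx2 line, 9.12 and 9.19 in the Runx1 line and 8.98 on the human RUNX1 array. Both Runx3 arrays lay below all 13 others. Induced and uninduced RUNX1-ER cells read 9.30 and 9.24, and 9.40 and 9.55.

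The Runx3 minus vector difference was −0.68 for 1434745_at (SE 0.11, limma adjusted p = 0.00195) and −0.71 for 1430127_a_at (SE 0.11, adjusted p = 0.00115). Probe set 1430127_a_at read 7.50 and 7.55 in the Runx3 line, against 8.25 and 8.22 in vector cells, and its groups did not overlap either. The 3 others called were −0.50 for 1416122_at (adjusted p = 0.00481), −0.45 for 1455956_x_at (adjusted p = 0.0132) and −0.49 for 1448229_s_at (adjusted p = 0.022). The call of 1416122_at was lost without vector replicate 1 (adjusted p = 0.0548). That of 1448229_s_at was lost without vector replicate 2 (0.239), Runx3 replicate 1 (0.154) or Runx3 replicate 2 (0.0639). That of 1455956_x_at was lost without vector replicate 1 (0.122), vector replicate 2 (0.0654) or Runx3 replicate 1 (0.135). With only the Runx3 and vector arrays in the fit, 1448229_s_at (0.0785) and 1455956_x_at (0.0795) were also not called.

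The remaining Ccnd2 probe sets, 1416123_at and 1416124_at, were dim, with values of 3.85 to 4.98 and 4.10 to 4.99 over all arrays, and neither was called in any comparison with vector. Probe sets with the suffix s, a or x can bind more than 1 transcript, and the called set included 1 of each kind beside 2 without. The Runx3 line was also lower than the Runx1 line on the same 5 probe sets, by 0.49 to 0.77 log2 units, where 3.58% of all probe sets were called and 2.3% were called lower. Of these 5 calls, those of 1434745_at (−0.65, adjusted p = 0.00383) and 1430127_a_at (−0.77, adjusted p = 0.000912) were kept without any one array. The call of 1416122_at was lost without Runx1 replicate 2 (0.0575), and that of 1448229_s_at without Runx1 replicate 1 (0.0724) or Runx3 replicate 1 (0.0768). That of 1455956_x_at was lost without Runx1 replicate 2 (0.107) or Runx3 replicate 1 (0.118).

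The Runx2 line lay between. Its difference from vector on 1434745_at was −0.31 (95% interval −0.55 to −0.07, limma adjusted p = 0.306). The Runx3 line was lower than the Runx2 line on 1 Ccnd2 probe set, 1430127_a_at (−0.47, SE 0.11, adjusted p = 0.0432), where 1.79% of all probe sets were called. Of the members 2 were called lower and 1 higher there, beside 0.917% and 0.868% of all. The Ccnd2 call was lost without Runx2 replicate 2 (0.214), Runx3 replicate 1 (0.196) or Runx3 replicate 2 (0.169). RUNX1-ER induction moved 1434745_at by −0.21 (95% interval −0.45 to 0.03, adjusted p = 0.638).

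**Figure D3:**
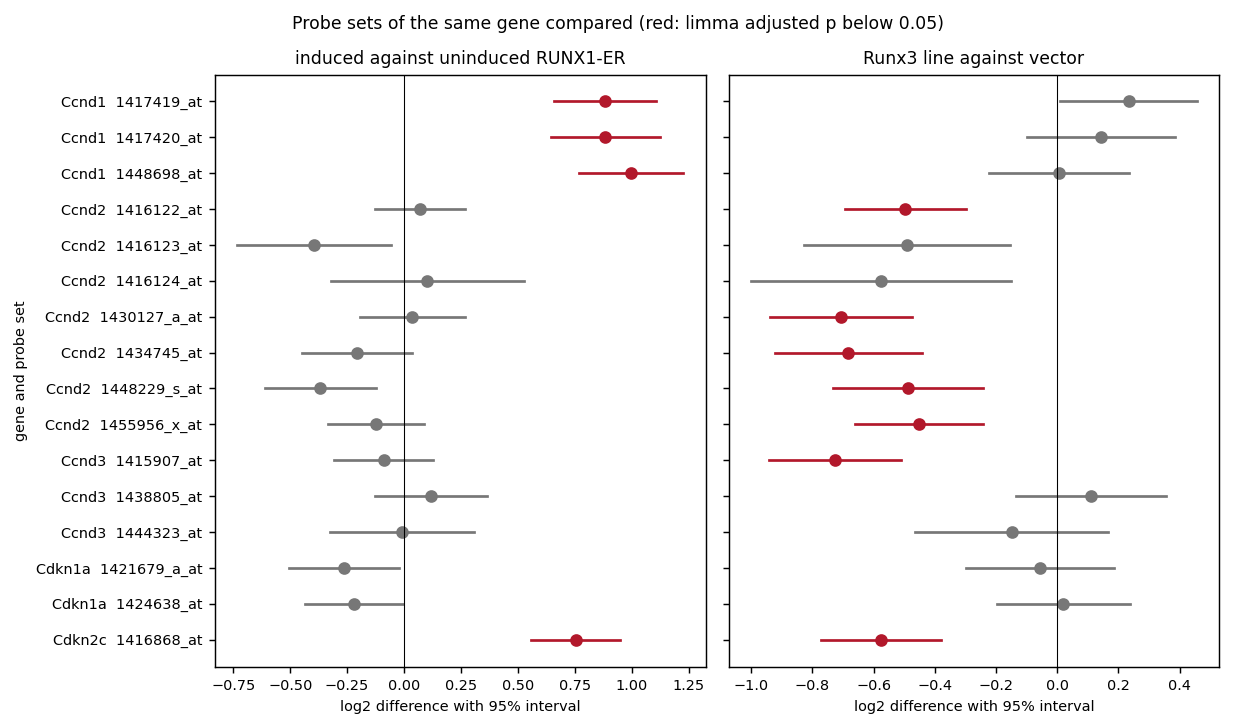
Log2 differences with 95% intervals (horizontal axis) for each probe set of Ccnd1, Ccnd2, Ccnd3, Cdkn1a and Cdkn2c, for induced minus uninduced RUNX1-ER cells on the left and the Runx3 line minus vector on the right, in red where the limma adjusted p was below 0.05. The 3 Ccnd1 intervals on the left lie between 0.64 and 1.23 and overlap each other. On the right, 5 of 7 Ccnd2 probe sets are red, and 1 of 3 for Ccnd3.

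Ccnd3 encodes cyclin D3. The RNA read by its bright probe set, 1415907_at, was lower than vector in the Runx3 and Runx2 lines. Values were 7.51 and 7.41 in the Runx3 line, 7.68 and 7.68 in the Runx2 line, 7.73 and 7.96 in the Runx1 line and 7.81 on the human RUNX1 array, against 8.16 and 8.22 in vector cells. Vector cells with 4-OHT read 8.13 and 8.22. All 7 arrays of stable lines lay below the 4 vector arrays, and so did all RUNX1-ER arrays, induced and uninduced (7.86 to 8.05).

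The difference from vector was −0.73 in the Runx3 line (SE 0.10, limma adjusted p = 0.000512) and −0.50 in the Runx2 line (SE 0.10, adjusted p = 0.0224). The Runx3 call was kept without any one array. The Runx2 call was lost without vector replicate 1 (0.138), vector replicate 2 (0.189), Runx2 replicate 1 (0.135) or Runx2 replicate 2 (0.0813), with only the compared groups in the fit (0.127) and after renewed quantile normalization (0.0529). The Runx1 line gave −0.34 (95% interval −0.56 to −0.13, adjusted p = 0.223) and human RUNX1 gave −0.37 (−0.64 to −0.11, adjusted p = 0.112).

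RUNX1-ER cells read 7.94 and 7.86 induced, against 7.94 and 8.05 uninduced, and these overlap. The difference was −0.09 (95% interval −0.31 to 0.13). The other Ccnd3 probe sets were 1444323_at, which read 4.97 to 5.45 over all arrays and was not called, and 1438805_at, which read 2.98 to 3.80. Averaged over its 3 probe sets, Ccnd3 was −0.25 in the Runx3 line (adjusted p = 0.055) and −0.18 in the Runx2 line (adjusted p = 0.362), both above the threshold.

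Cdkn2c encodes p18INK4c, which binds CDK4 and CDK6 and keeps them from D cyclins. It was called higher on RUNX1-ER induction and lower in the Runx3 line, and its 1 probe set had the smallest spread between replicates among the members. Probe set 1416868_at read 9.79 and 9.87 in induced RUNX1-ER cells, against 9.08 and 9.08 in uninduced cells. It read 8.64 and 8.48 in the Runx3 line, against 9.13 and 9.14 in vector cells. The induced arrays lay above, and the Runx3 arrays below, all others.

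Induction raised Cdkn2c 1.69-fold, by 0.75 log2 units (SE 0.09, limma adjusted p = 0.000831), a call lost with only the compared groups in the fit (adjusted p = 0.0654). Against vector with 4-OHT, at 9.07 and 9.15, the rise was 0.72 (SE 0.09, adjusted p = 0.000778). 4-OHT in vector cells moved it by −0.03 (95% interval −0.22 to 0.17). Induction beyond the 4-OHT effect was 0.78 (SE 0.13, adjusted p = 0.0168). That call was lost, at adjusted p of 0.064 to 0.101, without uninduced replicate 2, either induced array, either vector array or replicate 1 of vector with 4-OHT, with differences of 0.74 to 0.82. With only the compared groups in the fit it was also lost (0.0607), as was the call against vector with 4-OHT (0.0547).

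In the Runx3 line Cdkn2c fell to 0.671 of vector, by 0.58 log2 units (SE 0.09, limma adjusted p = 0.00143), a call kept without any one array. It was also lower than in the Runx2 line, by 0.54 (SE 0.09, adjusted p = 0.007). That call was lost without Runx2 replicate 1 (0.0631) or Runx3 replicate 2 (0.0917), or with only the compared groups in the fit (0.169). The Runx2 line itself read 9.14 and 9.08, within 0.03 of vector (95% interval −0.23 to 0.16). The Runx1 line read 8.86 and 8.91, below both vector arrays, with a difference of −0.25 (95% interval −0.45 to −0.06, adjusted p = 0.424).

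The effect of induced RUNX1-ER on Cdkn2c exceeded that of the Runx1 line by 0.97 (SE 0.13, limma adjusted p = 0.00245), that of the Runx2 line by 0.75 (adjusted p = 0.031) and that of the Runx3 line by 1.30 (adjusted p = 0.000179), in the contrasts added after the data were seen. For Ccnd2, the effect of induced RUNX1-ER exceeded that of the Runx3 line on 3 of the 7 probe sets, by 0.60 to 0.79. Ccnd1 and Cdkn2c RNA thus both read higher after induction, while in the Runx3 line Cdkn2c was called lower and Ccnd1 was not called.

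Cdkn1a encodes p21, the CIP inhibitor that p53 activates. Its bright probe set, 1424638_at, was lowest in the Runx2 line, at 8.63 and 8.51, against 9.00 and 8.99 in vector cells. It read 8.95 and 9.08 in the Runx3 line and 9.08 and 9.13 in the Runx1 line. Both Runx2 arrays lay below all 13 others. The difference from vector was −0.42 (95% interval −0.64 to −0.21), which did not pass the threshold (limma adjusted p = 0.0643).

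Against the Runx1 line, the Runx2 line was lower in Cdkn1a 1424638_at by 0.54 (SE 0.10, limma adjusted p = 0.0255), the 1 member called there, where 0.77% of all probe sets were called and 0.517% were called lower. That call was lost without Runx1 replicate 1 (0.137), Runx1 replicate 2 (0.19), Runx2 replicate 1 (0.0861) or Runx2 replicate 2 (0.108). The Runx3 line was higher than the Runx2 line by 0.44 (SE 0.10, adjusted p = 0.0422). That call was lost without Runx3 replicate 1 (0.0891), Runx3 replicate 2 (0.284), Runx2 replicate 1 (0.1) or Runx2 replicate 2 (0.174), and after renewed quantile normalization (0.0528). With only the compared groups in the fit, neither Runx2 against Runx1 (0.245) nor Runx3 against Runx2 (0.261) was called. The dimmer probe set, 1421679_a_at, had differences of the opposite sign. It read 4.94 and 5.10 in the Runx2 line, against 4.79 and 4.71 in the Runx1 line (0.26, adjusted p = 0.479). It read 4.92 and 4.99 in the Runx3 line, which overlaps the Runx2 line (−0.06, adjusted p = 0.903). With the mean of both probe sets, Cdkn1a was −0.14 for Runx2 against Runx1 (adjusted p = 0.587) and 0.19 for Runx3 against Runx2 (adjusted p = 0.277), neither of them called.

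RUNX1-ER cells read 8.95 and 8.93 for Cdkn1a 1424638_at induced, against 9.11 and 9.22 uninduced, a difference of −0.22 (95% interval −0.44 to −0.0033, adjusted p = 0.542).

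Cdkn1b encodes p27, the KIP inhibitor that accumulates in resting fibroblasts. Probe set 1434045_at read 7.34 and 7.12 in the Runx3 line, against 7.84 and 7.74 in vector cells. The difference was −0.56 (SE 0.16, 95% interval −0.90 to −0.22), and the groups did not overlap, but the limma adjusted p was 0.0603. Its replicates spread more than those of other bright members, for example 7.93 and 7.42 in the Runx1 line. The second probe set, 1419497_at, was dim, at 3.12 to 4.28 over all arrays, and was not called.

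Cdkn1c (p57), Cdkn2a (p16INK4a and p19ARF) and Cdkn2b (p15INK4b) were dim on every array. Cdkn1c 1417649_at ranged from 3.41 to 3.79, Cdkn2a 1450140_a_at from 3.01 to 3.55 and Cdkn2b 1449152_at from 3.30 to 3.94, beside array medians of 3.69 to 3.75. None of the 3 was called in any of the 13 comparisons. The table carries no detection call, so whether these RNAs were present cannot be told from it. Cdkn2a was highest on the human RUNX1 array, at 3.55, and read 3.01 to 3.36 on the 14 others.

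The human RUNX1 line had 1 array, assumed in the fit to vary like the other groups. Against vector, 1 member probe set was called, where 4.31% of all were called and 1.48% were called higher: the dim Ccnd3 1438805_at, at 3.80 against 3.14 and 3.26 (0.60, limma adjusted p = 0.0284). Against the Runx1 line, where 2.39% of all were called (0.877% higher, 1.51% lower), Ccnd2 1448229_s_at was lower (6.20 against 6.82 and 6.77, adjusted p = 0.0447) and the dimmer Cdkn1a probe set 1421679_a_at was higher (5.45 against 4.79 and 4.71, adjusted p = 0.0206). All 3 calls were lost without either array of the compared line, at adjusted p of 0.0632 and 0.154 for Ccnd3, 0.114 and 0.154 for Ccnd2, and 0.068 and 0.0895 for Cdkn1a. This array had the lowest 75th percentile, 5.48 log2 units, against 5.55 to 5.71 on the others, and its part in these values was not tested.

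Other genes of the pathway were followed as 8 lists, with the brightest probe set for each gene and p-values adjusted over all 45037 probe sets. Shares and medians of all genes are over the brightest probe sets of 18193 genes. In the Runx3 line, 7.83% of all genes were called. The list of CDKs and later cyclins, which also holds regulators of CDKs, had 0 of 12 genes higher than vector and 3 lower. None of the 3 was itself a CDK or a cyclin. They were Cdkn3, a phosphatase that acts on CDKs (−0.97, SE 0.17, limma adjusted p = 0.00385), the INK4 inhibitor Cdkn2d (−0.50, SE 0.09, adjusted p = 0.00282) and Mnat1 of the CDK-activating kinase (−0.36, adjusted p = 0.0276). Cdkn2d was thus lower alongside its relative Cdkn2c. Of 23 S phase and mitosis genes, 3 were lower and 0 higher, among them the mitotic kinase Aurkb (−0.58, adjusted p = 0.00299) and the proliferation marker Mki67 (−0.46, adjusted p = 0.0275). The medians of these lists were −0.10 and −0.10 log2 units, beside 0.00046 over all genes. The part of this shift in the values of Ccnd2, Ccnd3 and Cdkn2c was not tested.

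Among 25 p53 target genes, 1 was higher and 4 were lower in the Runx3 line, led by the antiproliferative gene Btg2 (−1.12, SE 0.20, limma adjusted p = 0.00436) and the kinase Plk3 (−0.72, adjusted p = 0.0219). Of 15 p53 regulators, 3 were lower, among them the checkpoint kinase Chek2 (−0.84, adjusted p = 0.00261), and 0 were higher. Trp53inp1 was lower and is counted in both of these lists. Of 17 transcription factors of D cyclin and CDK inhibitor genes, 1 was higher, Myc (0.85, adjusted p = 0.000512), and 4 were lower. The 2 that fell most were the immediate early factor Egr1 (−1.28, adjusted p = 0.00603) and Klf4, an activator of Cdkn1a (−1.06, adjusted p = 0.00118). The Rb and E2F family had 1 of 13 higher, Tfdp2 (0.58), and 1 lower, the pocket protein Rbl2 (−0.57). The ubiquitin ligases had 1 of 14 higher, Fbxo31 (0.57), and 1 lower, Cul4a (−0.38), and 0 of 16 Polycomb and Ink4 regulators were called. Of other probe sets of the same gene, 0 of 3 for Tfdp2 and 0 of 1 for Rbl2 were called in the same direction. For Btg2, Klf4 and Fbxo31 it was 1 of 1 each.

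On RUNX1-ER induction, where 1.41% of all genes were called, 6 of the 8 lists had 0 genes called. The Polycomb and Ink4 regulators had 1 higher, the inhibitory helix-loop-helix factor Id1 (0.89, SE 0.12, limma adjusted p = 0.00241), and 1 lower, the factor Ets2 (−0.65, adjusted p = 0.0252). Among transcription factors, 1 of 17 was lower, Klf4 (−0.82, adjusted p = 0.0285). Of other probe sets of the same gene, 0 of 2 for Ets2 and 1 of 1 for Klf4 were called in the same direction. Id1 was, however, lower in uninduced RUNX1-ER cells than in vector (−1.18, SE 0.12, adjusted p = 0.00548), so induced cells, at a mean of 8.68, lay below vector, at 8.97, and above uninduced cells, at 7.79. The S phase and mitosis genes had a median of 0.18, beside 0.021 over all genes, with 0 of 23 called.

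Against vector with 4-OHT, where 2.92% of all genes were called, induced cells had 4 of 23 S phase and mitosis genes higher and 0 lower. They included the replication licensing factors Cdc6 (0.90, SE 0.18, limma adjusted p = 0.0212) and Mcm3 (0.59, SE 0.10, adjusted p = 0.00773). Cdk6, a kinase partner of D cyclins, was higher (0.48, adjusted p = 0.0312), as were E2f3 (0.70, adjusted p = 0.0305) and Skp2, part of the ubiquitin ligase for p27 (0.46, adjusted p = 0.0432). Of the transcription factors, 2 were higher, Smad3 (0.60) and Myc (0.55), and 2 were lower. Those lower were Egr1 (−1.27) and the Myc antagonist Mxi1 (−0.79). Of other probe sets of the same gene, 0 of 4 for Mcm3, 0 of 1 for E2f3 and 0 of 5 for Skp2 were called in the same direction. For Smad3 it was 0 of 2. It was 1 of 2 for Cdk6 and 1 of 1 for Mxi1. Induced minus uninduced, the differences were 0.51 for Cdc6, 0.16 for Mcm3, 0.23 for Cdk6, 0.37 for E2f3 and 0.015 for Skp2. They were −0.46 for Egr1, −0.39 for Mxi1, 0.39 for Smad3 and 0.42 for Myc, and none of these genes was called there. The part of these genes in the Ccnd1 and Cdkn2c values was not tested.

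In the Runx2 and Runx1 lines, 2.13% and 1.42% of all genes were called. The Runx2 line had 1 of 13 called in the Rb and E2F family, 1 of 15 p53 regulators and 1 of 25 p53 target genes. It also had 1 of 16 Polycomb and Ink4 regulators and 2 of 17 transcription factors called. These were Rbl2 (−0.56), the p53 kinase Hipk2 (−0.82), the p53 target Plk2 (0.76), Id1 (−0.79), Klf4 (−0.86) and Mxi1 (−0.75). In the Runx1 line, 1 of 15 p53 regulators and 1 of 25 p53 target genes were called. So were 1 of 16 Polycomb and Ink4 regulators and 1 of 17 transcription factors. They were Hipk2 (−0.51), the stress gene Gadd45a (1.73, SE 0.37, limma adjusted p = 0.0435), Id1 (−1.02) and Mxi1 (−0.52). Of other probe sets of Hipk2, 0 of 7 were called in the same direction in either line. In the Runx2 line it was 0 of 1 for Rbl2 and for Plk2, and 1 of 1 for Klf4 and for Mxi1. In the Runx1 line it was 0 of 1 for Mxi1. Neither line had a gene called among the CDKs and later cyclins or among the S phase and mitosis genes.

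**Figure D4:**
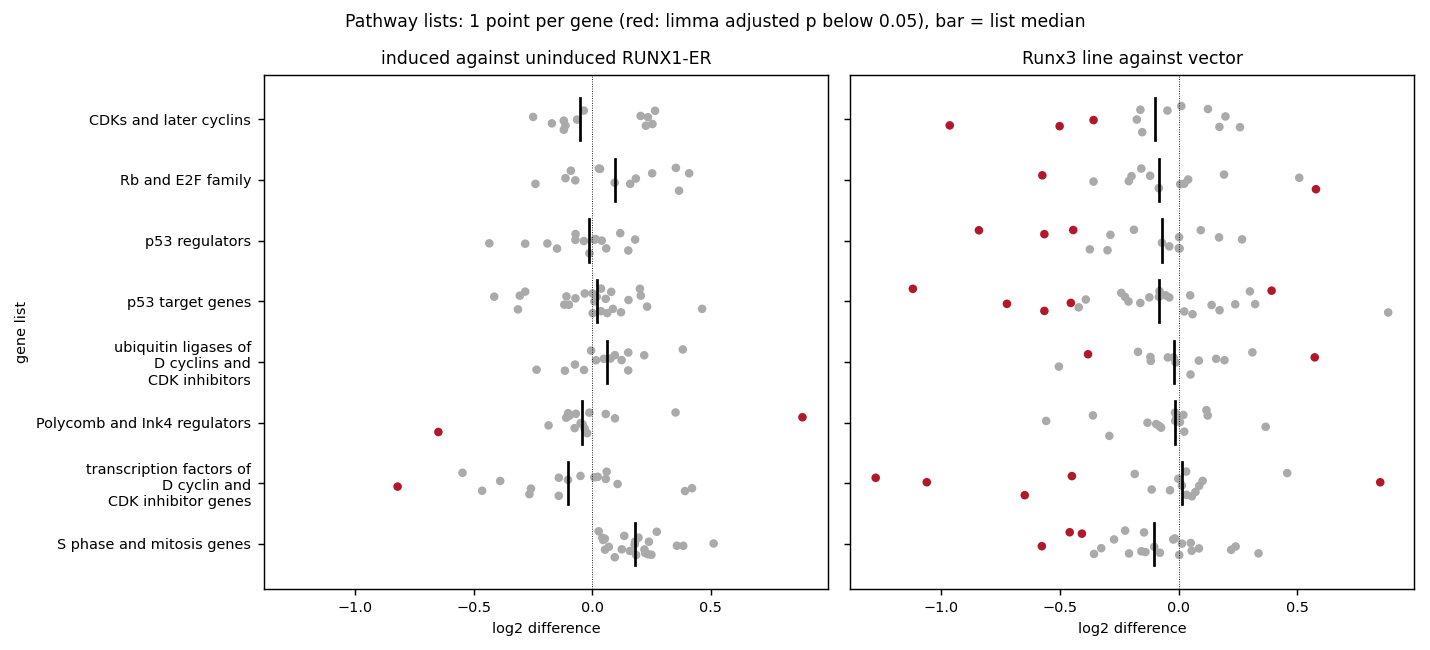
Log2 differences (horizontal axis) of the genes in each of 8 pathway lists (rows), with 1 point per gene, red where the limma adjusted p was below 0.05, and a bar at each list's median, for induced minus uninduced RUNX1-ER cells on the left and the Runx3 line minus vector on the right. On the left 3 genes are red, 1 higher and 2 lower. On the right most red points lie left of 0.

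The 3073 candidate genes had a mean over all arrays above 5 and group means that ranged over at least 0.5 log2 units. Those whose group means followed a member most closely were sought by Pearson's r over the 8 group means, which share the same arrays. For Ccnd1 these were Lpin2 (r = 0.940), Mad1l1 (0.920) and Cmip (0.920). Lpin2 averaged 7.97 in induced RUNX1-ER cells and 7.33 in uninduced cells. For Cdkn2c they were Aida (0.964), Mpnd (0.960) and Ehd2 (0.926). Mpnd averaged 8.82 in induced and 8.51 in uninduced cells, and 8.16 in the Runx3 line, against 8.54 in vector cells. For Ccnd2 they were Pnma5 (0.982), Zyx (0.977) and Dbi (0.972). Dbi averaged 9.64 in the Runx3 line, against 10.47 in vector cells. With 8 group means chosen from for likeness, these are descriptions.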

How the data were processed

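The deposited table holds log2 values for 45101 probe sets on 15 arrays. The authors used GCOS to generate raw data and the RMA method of the affy module to normalize it, per the labels' protocols; the sources used here give no versions. The log2 scale was read from the range of the values. After 64 control probe sets were left out, 45037 were tested with limma 3.58.1 in R 4.3.3 (lmFit and eBayes, 1 coefficient per group over all 15 arrays, 7 residual and 6.21 prior degrees of freedom). All tests were two-sided, with Benjamini-Hochberg adjustment over all probe sets within each of 13 comparisons and 3 added later, with a threshold of 0.05. The number of arrays limits the precision. Symbols came from the platform annotation, which can be old: 34945 probe sets had 1 symbol, 932 had several and 9160 had none. Probe sets were called bright or dim, and the brightest of a gene picked, by their mean over all arrays, which also depends on the probes.

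The members and lists were chosen with earlier results of these data known. All members were named, with up to 2 genes per list and comparison by size of change among those called, and the 3 closest genes by pattern for 3 members. Mnat1 was added to complete a count of 3. Myc and Smad3 were added as the transcription factors called higher, and Trp53inp1 because both p53 lists hold it. The alternatives were a filter on dim probe sets, median centring, renewed quantile normalization, a variance trend, fitting only the compared groups, a replicate block, other vector controls, gene-level values and leaving out each array. The steps were tested on simulated data.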

Additional observations from a re-analysis of the deposited data

Results flagged for a closer look

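The rise on RUNX1-ER induction differed from the 4-OHT effect in vector cells, by limma's test of the difference itself, for 4 of the 21 member probe sets. The difference of the 2 effects was 0.90 log2 units for Ccnd1 1417419_at, 0.93 for Ccnd1 1417420_at, 1.09 for Ccnd1 1448698_at and 0.78 for Cdkn2c 1416868_at, with adjusted p of 0.0168, 0.0208, 0.00548 and 0.0168. Of all 45037 probe sets, 0.329% were called in this test and 0.262% were called higher. The call of 1448698_at was kept under every alternative. Those of 1417419_at, 1417420_at and Cdkn2c were lost under 7 of 14, 6 of 14 and 7 of 16 alternatives. For all 4, both induced arrays lay above both uninduced arrays, which adds no support because the same arrays gave the calls. No group had enough arrays to look for a single array far from the rest.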

How the results depend on the processing

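Of 32 called member values in the 13 comparisons, 9 kept their call and 0 reversed under the alternatives run. Of the 371 alternatives of these values, 290 kept the call and 81 lost it. The 3 contrasts added later were not put through the alternatives. The cause of the losses was not tested beyond the smaller fits' fewer arrays. With only the compared groups in the fit, member probe sets called became 1 of 4 for RUNX1-ER induction, 1 of 4 for induction beyond 4-OHT, 2 of 4 for induced RUNX1-ER against vector with 4-OHT 3 of 5 for Runx3 against Runx1 and 5 of 7 for Runx3 against vector. They became 0 for Runx2 against vector, Runx2 against Runx1, Runx3 against Runx2 and human RUNX1 against vector or Runx1. Runx2 against vector (1 called) had 2 with the filter on dim probe sets, 2 with the variance trend, 2 with vector with 4-OHT as control, 2 with all 4 vector arrays, and 0 after quantile normalization. Human RUNX1 against vector (1 called) had 2, 2, 2 and 3 with the dim filter, quantile normalization, vector with 4-OHT and all 4 vector arrays, and human RUNX1 against Runx1 (2 called) had 1 and 1 with the first 2 of these. Runx3 against Runx2 (3 called) had 5 with the dim filter and 1 with the replicate block, which lost Ccnd2 1430127_a_at (adjusted p = 0.0624) and Cdkn1a 1424638_at (0.061), and no other call was lost with the block. Replicate numbers did not pair the arrays: over 21 pairs of groups, deviations of same-numbered arrays correlated from −0.18 to 0.31, with 4 above 0.1. Leaving out each array gave 0 to 0 for Runx2 against vector, for Runx2 against Runx1 and for human RUNX1 against vector or Runx1, 0 to 1 for Runx3 against Runx2, 5 to 6 for Runx3 against vector, 4 to 5 for Runx3 against Runx1, 4 to 4 for RUNX1-ER induction and 1 to 3 for induction beyond 4-OHT. These counts can include probe sets not called in the main fit. For Runx3 against Runx1, the calls of 1416122_at and 1455956_x_at were both lost without Runx1 replicate 2. Those of 1448229_s_at and 1455956_x_at were both lost without Runx3 replicate 1. Counted as genes, the brightest probe set gave 2 for Runx2 against vector, 3 for Runx3 against Runx1 and 0 for both human RUNX1 comparisons. The mean of a gene's probe sets gave 0 for Runx2 against vector, 0 for Runx2 set against Runx1, 2 for Runx3 set against Runx1, 1 for Runx3 set against Runx2 and 0 for both human RUNX1 comparisons.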

Other observations

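On the human RUNX1 array, 7 of 23 S phase and mitosis genes were lower than in vector and 0 were higher, where 5.69% of all genes were called. Rrm2, a subunit of ribonucleotide reductase, read 8.12, against a mean of 8.96 in vector cells (limma adjusted p = 0.00648), and the licensing factor Cdc6 read 4.54, against 5.53 (adjusted p = 0.0251). The late G1 cyclin Ccne2 read 2.88, against 4.22 (−1.34, adjusted p = 0.00107), and the p53 kinase Hipk2 read 7.03, against 8.48 (−1.45, adjusted p = 3.17e-05). Of other probe sets of the same gene, 1 of 7 for Hipk2 and 2 of 2 for Rrm2 were called in the same direction. The mouse Runx1 line had 0 of the 23 S phase and mitosis genes called against vector. The human RUNX1 line has 1 array, so its own spread is not known. Ccne2 was dim, below 5 log2 units in both groups, and its value on the human RUNX1 array lay below that array's 25th percentile, 3.23.

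Id1 differed between the stable lines. It averaged 9.34 in the Runx3 line, 8.18 in the Runx2 line and 7.95 in the Runx1 line, against 8.97 in vector cells. The Runx3 line was higher than the Runx1 line by 1.39 (SE 0.12, limma adjusted p = 2e-05) and higher than the Runx2 line by 1.16 (SE 0.12, adjusted p = 0.000249).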
